A study of Mus musculus with 12 samples.

Results

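The nuclear-encoded genes of the respiratory chain and of ATP synthase were followed across astrocytes, astrocyte spheres and cells taken directly from mouse brain. The members were the protein-coding genes outside the mitochondrial chromosome whose symbols begin with Nduf followed by a, b, c, s or v and a number, with Uqcr, with Cox4 to Cox8, or with Atp5. These were 82 of the 55862 genes of the table and of its 21913 protein-coding genes outside the mitochondrial chromosome. By name, 38 belonged to complex I, 8 to complex III, 18 to complex IV and 18 to complex V. The rule itself reads symbols and positions and no measured value. A few subunits with other names, such as Cyc1 and Ndufab1, were therefore not members, and Ndufa4 and its relative Ndufa4l2 were counted with complex I by name although the Ndufa4 protein is found in complex IV.

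In the inner mitochondrial membrane, complex I oxidises NADH, complex III passes electrons from ubiquinol to cytochrome c, and complex IV (cytochrome c oxidase) hands them to oxygen. The protons pumped on the way drive complex V, the ATP synthase. Each of these complexes joins a few catalytic proteins encoded by the mitochondrial genome or the nucleus to many accessory proteins from nuclear genes, and several complex IV subunits exist as a widely expressed form and a form restricted to muscle, testis, lung or other tissues.

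RNA of 12 mouse samples, all labelled C57BL/6, was measured, 3 in each of 4 groups, and the methods name C57BL/6J for the mice of the P56-NPC and P0-NPC groups. AST were primary astrocytes from the cortex of newborn mice, grown in serum and sampled at 0 days of sphere culture, and A-iSCs (astrocyte-induced stem cells) were the same kind of cells after 5 days as spheres on agarose. P56-NPC were cell suspensions from the subependymal zone of adult mice at postnatal day 56 and P0-NPC were cell suspensions from the hippocampus at postnatal day 0, both named neural precursor cells and used as positive controls. No sort is described for either suspension, so each can hold several cell types, and nothing in the labels says that the 3 replicates of a group came from separate animals or cultures. A general remark of the methods on independent experiments is not tied to these libraries. The p-values therefore measure the spread between these samples, which may be technical.

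The values were FPKM, the fragments of a gene corrected for its length and the library size, and between 17077780 and 24452419 fragments per sample lay behind them. The members took 0.766 to 1.37% of these fragments. Oligodendrocyte markers (6 genes, none of them at 0 in P56-NPC) summed to 10825 to 12337 FPKM in the P56-NPC samples and to 15.2 to 75.9 FPKM in the others, microglia markers to 1084 to 1495 FPKM in A-iSCs and to 96.5 to 127 FPKM in AST, and neuron markers to 951 to 1179 FPKM in P0-NPC and to 79.1 to 412 FPKM elsewhere. Tubb3, at a mean of 634 FPKM, carried most of the P0-NPC sum, and Nefl, Snap25, Map2 and Syt1 were higher in P56-NPC. The microglia markers summed to 435 to 458 FPKM in P56-NPC and to 63.6 to 73.5 FPKM in P0-NPC. C1qa, at a mean of 1029 FPKM, carried most of the A-iSCs sum, and P2ry12 and Tmem119 were higher in P56-NPC than in A-iSCs. The 8 astrocyte markers summed to 143 to 161 FPKM in AST, 1211 to 2466 FPKM in A-iSCs, 2834 to 3072 FPKM in P56-NPC and 238 to 303 FPKM in P0-NPC. Single markers departed from this order. Gfap (970.0 FPKM), Aqp4 and Aldh1l1 were highest in A-iSCs, and Aqp4, Gja1, Aldh1l1 and S100b were higher in AST than in P0-NPC. The part of these cell types in the results for the members was not tested. Fewer cells of a type and less RNA per cell cannot be told apart in such bulk samples.

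Among the 12 samples, AST replicate 2 and A-iSCs replicate 3 stood apart in the members. In AST replicate 2, 69 of 75 members with a group mean of at least 1 FPKM were higher than in both other AST samples, with a median log2 difference of 0.64 from the mean of those samples. The same sample was higher by a median of 0.51 for 622 other protein-coding genes whose main transcript is under 1000 bases, and lower for 3543 genes of 4000 bases or more, at -0.19. A-iSCs replicate 3 went the other way. Here 56 of 76 members were lower than in both other A-iSCs samples, with a median of -0.37, beside -0.36 for the other short protein-coding genes and 0.25 for the long ones. Most members have short transcripts, so the counts over all members are also given without these samples.

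**Figure D1:**
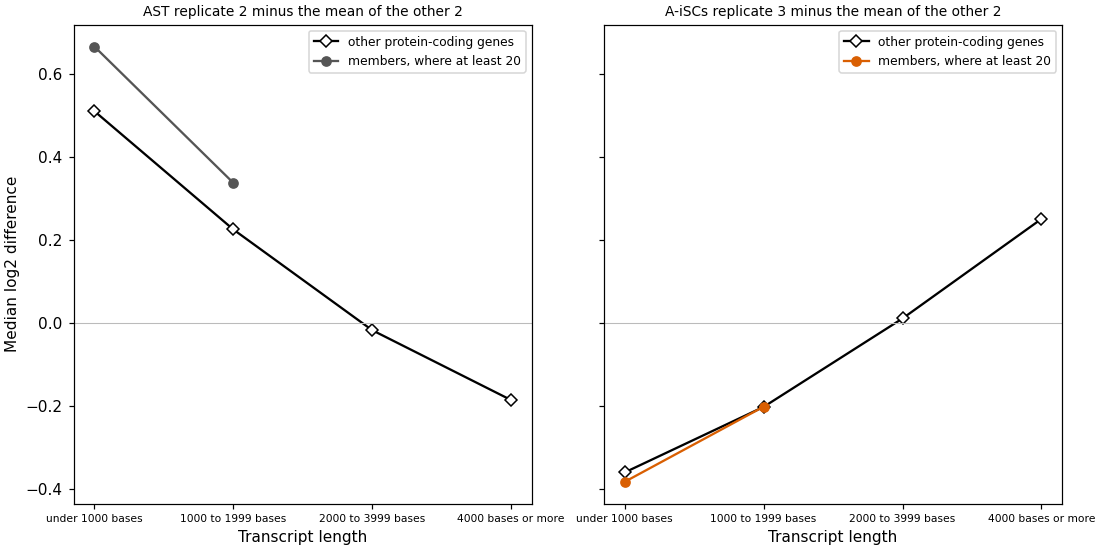
Median log2 difference of AST replicate 2 (left) and A-iSCs replicate 3 (right) from the mean of the other 2 samples of the group, by transcript length, for members (filled, shown where a length class held at least 20) and for other protein-coding genes (open diamonds). In AST replicate 2 the line falls from 0.51 for other genes under 1000 bases to -0.19 at 4000 bases or more, and in A-iSCs replicate 3 it rises from -0.36 to 0.25.

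The summed level of the 82 members was lowest on average in P0-NPC in the deposited scaling and in 3 others (library size alone, nuclear fragments alone and upper-quartile scaling), and the order of AST and P56-NPC depended on the scaling. In the deposited FPKM, AST samples summed to 6966, 10289 and 6885 FPKM, A-iSCs to 5908, 5556 and 4585 FPKM, P56-NPC to 8422, 8642 and 8916 FPKM, and P0-NPC to 4175, 4380 and 4371 FPKM. The A-iSCs samples were here all below the AST samples and all above the P0-NPC samples, whereas AST and P56-NPC overlapped through AST replicate 2. With nuclear fragments alone A-iSCs replicate 1 (7004) and AST replicate 3 (7001) changed places, and with library size alone or nuclear fragments alone A-iSCs replicate 3 fell below a P0-NPC sample. The mean of AST was above that of P56-NPC in the 3 other scalings, at 7768 against 6619, 8070 against 7980 and 8599 against 8302 with library size alone, nuclear fragments alone and upper-quartile scaling. Complex IV stood at 3990 ± 121 FPKM in P56-NPC and 2733 ± 688 FPKM in AST (SD, n = 3), with no overlap in the deposited FPKM and with nuclear fragments alone, while AST replicate 2 overlapped the P56-NPC samples in the other scalings. The means of the other complexes were not higher in P56-NPC than in AST, although in complex I all P56-NPC samples lay above AST replicates 1 and 3: complex I stood at 2451 ± 50.2 and 2625 ± 725 FPKM, complex III at 874 ± 45.4 and 1036 ± 264 FPKM, and complex V at 1344 ± 44.3 and 1653 ± 265 FPKM, in P56-NPC and AST.

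**Figure D2:**
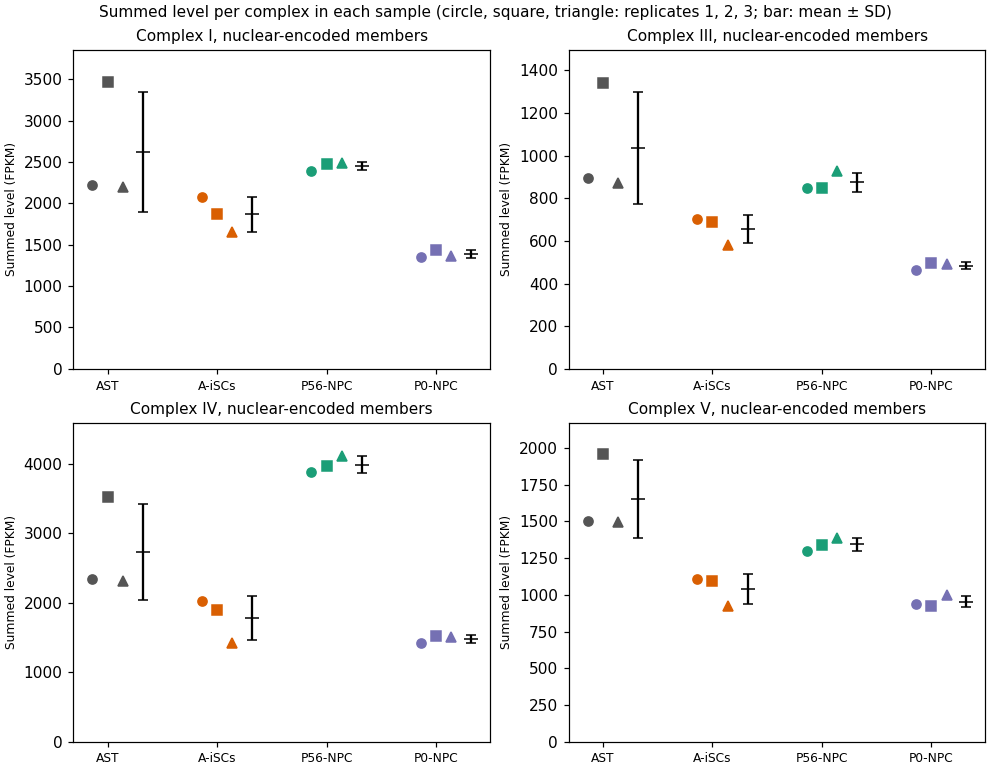
Summed FPKM of the nuclear-encoded members of complexes I, III, IV and V in each sample (circle, square and triangle for replicates 1, 2 and 3; bar, mean ± SD). In complex IV the 3 P56-NPC samples sit between 3878 and 4118 FPKM, above the highest AST sample at 3527 FPKM, and in each complex AST replicate 2 lies above the other AST samples.

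Within the set, 26 members were above 50 FPKM in each of the 12 samples. By the mean over the 12 samples the highest levels belonged to Cox8a, Cox6a1, Cox4i1 and Cox6b1 of complex IV and to Atp5b, the catalytic beta subunit of the ATP synthase, although in AST Atp5b was above Cox4i1 and Cox6b1. At the other end, 3 members stayed under 1 FPKM in each sample. These were Cox8c, listed at 0 throughout, a second row named Atp5o whose exons lie wholly within those of Donson, and Ndufs3, a core subunit of complex I. Ndufs3 was listed at 0 in 11 samples and had 1 fragment in a P0-NPC sample, and the table lists its neighbour Kbtbd4 at 0 as well, so nothing is drawn from its value. Uqcrc1 (3.28 ± 0.406 FPKM in AST) was low beside its partner Uqcrc2 (69.1 ± 2.08 FPKM), and Atp5a1 was low beside Atp5b. Such values depend on how fragments were assigned to genes, which was not tested.

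Genes of the respiratory chain are known targets of the factors NRF1 and GABP, the latter an ETS-family factor. RefSeq promoter windows on GRCm38.p6, from 250 bases before to 50 bases after a start, were matched to 66 of the 82 members through 71 promoters. The NRF1 motif, searched as GCGCA, any base and GCGC on either strand, was present in 22.5% of member promoters and in 4.60% of all 32851, and the letters CCGGAAG of an ETS motif in 21.1% and 8.86%. Both occurred in 4.23% of member promoters and in 0.892% of all. The 200 bases before the start are shown for 5 members picked by hand, 3 of them widely expressed and then the restricted forms Cox6b2 and Cox8b, with motif letters in capitals and each sequence 5′ to 3′ on the gene's strand. They do not stand for the set. Cox6a1 and Atp5h are among the few members with both motifs, and widely expressed members such as Atp5b, Cox5a and Cox7a2 held neither. All 5 lie on the minus strand, at chr5:115348959-115349158 for Cox6a1, chr11:115419920-115420119 for Atp5h, chr7:30626115-30626314 for Cox6b1, chr7:4753095-4753294 for Cox6b2 and chr7:140900447-140900646 for Cox8b.
Cox6a1: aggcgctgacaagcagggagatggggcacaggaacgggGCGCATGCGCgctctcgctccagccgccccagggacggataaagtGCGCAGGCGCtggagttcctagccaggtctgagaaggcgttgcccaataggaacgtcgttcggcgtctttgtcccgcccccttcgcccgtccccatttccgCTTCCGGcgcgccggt
Atp5h: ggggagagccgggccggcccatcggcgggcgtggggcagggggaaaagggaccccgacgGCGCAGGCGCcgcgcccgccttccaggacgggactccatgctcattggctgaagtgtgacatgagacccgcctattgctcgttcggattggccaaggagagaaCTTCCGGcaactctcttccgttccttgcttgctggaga
Cox6b1: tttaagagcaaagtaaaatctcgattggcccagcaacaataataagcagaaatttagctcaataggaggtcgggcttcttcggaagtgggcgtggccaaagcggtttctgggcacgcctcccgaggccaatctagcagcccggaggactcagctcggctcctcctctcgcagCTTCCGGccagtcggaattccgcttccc
Cox6b2: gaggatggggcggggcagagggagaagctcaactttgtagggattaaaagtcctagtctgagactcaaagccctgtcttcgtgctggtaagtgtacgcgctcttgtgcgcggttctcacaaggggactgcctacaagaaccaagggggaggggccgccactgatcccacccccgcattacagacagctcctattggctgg
Cox8b: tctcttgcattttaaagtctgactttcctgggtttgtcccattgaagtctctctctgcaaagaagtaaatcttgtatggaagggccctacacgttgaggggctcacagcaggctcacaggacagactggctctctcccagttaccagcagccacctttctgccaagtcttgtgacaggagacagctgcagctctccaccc
In the sequences shown no matches share a base. Cox6a1 held 2 NRF1 matches and 1 ETS match within 162 bases of its start, and Atp5h held 1 of each. Neither motif was found in the windows of Cox6b2 and Cox8b. For members with a match to either motif in P56-NPC against P0-NPC, described below, the median log2 fold change was 0.70 over 26 members, beside 0.64 over 39 members without a match, and in A-iSCs against AST the medians were -0.55 and -0.51.

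The first question was how the genes differed between astrocytes and the spheres made from them. Of 76 members tested, 32 were lower and 1 was higher in A-iSCs than in AST, with limma on log2(FPKM + 1) at a Benjamini-Hochberg adjusted p under 0.05, while 54.8% of all genes tested were called, 29.6% lower and 25.2% higher. The median log2 fold change of the members was -0.53, beside -0.06 over all 14087 genes tested. Other protein-coding genes with transcripts under 1000 bases had a median of -0.18, and the 48 members of that length had a median of -0.53. Without AST replicate 2 and A-iSCs replicate 3 together, 38 members were lower, 10 were higher, and their median was -0.22. Leaving out A-iSCs replicate 2 alone gave 18 lower, and leaving out AST replicate 2 or A-iSCs replicate 3 alone gave 3 higher in each case. Scaling by library size alone, which moved the median of all genes to 0.13, gave 15 lower, 3 higher and a median of -0.31, and nuclear fragments alone gave a median of -0.29. Relative to all genes the members lay between -0.48 and -0.45 in the 4 scalings, a gap that a scaling can hardly move. The gap did move with samples, to -0.28 without AST replicate 2 and to -0.16 without AST replicate 2 and A-iSCs replicate 3.

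In ATP synthase 10 of 17 tested members were lower, and its catalytic subunit fell furthest. Atp5b (chr10:128083273-128090391, plus strand) was measured at 374, 323 and 369 FPKM in AST and at 141, 153 and 189 FPKM in A-iSCs. The groups did not overlap, AST replicate 2 was the lowest AST sample here, and the log2 fold change was -1.15 (SE 0.16, adjusted p = 0.000954, limma). The c ring, the rotor of the enzyme, is made of 1 protein encoded by Atp5g1, Atp5g2 and Atp5g3. Of these, Atp5g1 fell by 1.10 and Atp5g3 fell by 0.92 on the log2 scale (adjusted p = 0.00432 and 0.0019, limma), while Atp5g2 had a log2 fold change of -0.20 and did not pass. As a result Atp5g2 made up 46.6, 46.4 and 43.6% of the summed c-ring FPKM in A-iSCs and 34.2, 32.4 and 32.6% in AST, with no overlap.

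In complex IV, 7 of 14 tested members were lower. Cox5a, a widely expressed subunit of cytochrome c oxidase that is named here after its values were seen, stood at 56.5, 57.6 and 55.7 FPKM in AST and 25.3, 25.9 and 24.7 FPKM in A-iSCs. All A-iSCs values were below all AST values, and the log2 fold change was -1.13 (SE 0.10, adjusted p = 9.69e-05, limma). Cox7a2 fell by 1.01 on the log2 scale (adjusted p = 0.00199, limma). Cox6a1 fell by 0.83 (adjusted p = 0.0221) and Cox8a fell by 0.66 (adjusted p = 0.0405), and both calls were lost under several alternatives, with adjusted p up to 0.0717 for Cox6a1 and up to 0.154 for Cox8a. The restricted form Cox6b2, described further on, had the smallest log2 fold change of the complex at -1.64.

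In complex III 6 of 8 members were lower, among them all 3 core subunits: Uqcrc1 by 0.63, Uqcrc2 by 0.49 and the Rieske iron-sulphur protein Uqcrfs1 by 0.63 on the log2 scale (adjusted p = 0.00437, 0.00803 and 0.00642, limma). The call of Uqcrc2 was lost under 3 alternatives, with adjusted p up to 0.0927. Uqcrb, the subunit with the smallest fold change of the complex, was at 133, 248 and 145 FPKM in AST and at 117, 98.2 and 81.1 FPKM in A-iSCs. The groups did not overlap but the AST values were spread widely, and the call (log2 fold change -0.78, adjusted p = 0.0379) was lost under some alternatives, with adjusted p up to 0.113.

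In complex I 9 of 37 tested members were lower and 1 was higher, a share lower that is close to that of all genes. Without AST replicate 2 and A-iSCs replicate 3 11 of 37 were lower and 7 higher in complex I, 7 of 8 were lower in complex III, 8 of 15 were lower and 2 higher in complex IV, and 12 of 17 were lower and 1 higher in complex V. The difference between the complexes was not tested. Among its core subunits, which carry the flavin and the iron-sulphur clusters, Ndufs1 fell by 0.52 on the log2 scale (adjusted p = 0.0234, limma), a call that was lost under several alternatives, with adjusted p up to 0.124. Ndufs1 was at 14.2, 12.3 and 13.5 FPKM in AST and at 8.10, 7.82 and 11.3 FPKM in A-iSCs, so A-iSCs replicate 3 came close to the AST range. The accessory subunit Ndufb6 fell by 1.45 on the log2 scale (SE 0.20, adjusted p = 0.00079), from 126, 198 and 133 FPKM to 59.0, 47.8 and 56.4 FPKM. Of its exon bases 39.0% are shared with Smim27 on the opposite strand, so reads of both genes could not be told apart without strand. Ndufa4 fell by 1.19 (adjusted p = 0.000749). The 1 higher member was Ndufa4l2, which reached the test through A-iSCs alone, at a mean of 1.34 FPKM against 0.280 FPKM in AST, so that it could not have been called lower.

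Other mitochondrial genes were read from lists of known function. Of 20 genes of mitochondrial content, such as the outer membrane channel Vdac1, the import receptors and the chaperone Hspd1, 18 were lower in A-iSCs than in AST, with a median of -0.84. Of 42 assembly factors tested, 18 were lower and 1 was higher (median -0.35), and of 10 genes of complex II and the mobile carriers 4 were lower, among them cytochrome c (Cycs) at a log2 fold change of -1.39. Regulators of mitochondrial biogenesis, such as Nrf1, Gabpa and Tfam, had 2 lower and 1 higher of 14, with a median of -0.06. Of 9 hypoxia targets, 6 were higher and 1 was lower, with Bnip3 at 1.91 and Vegfa at 1.63. Ndrg1 went the other way, at 6.29 to 6.53 FPKM in A-iSCs and 20.1 to 21.5 FPKM in AST. Ldha, the highest gene of this list in both groups, was at 148 to 203 FPKM in A-iSCs and 221 to 240 FPKM in AST. The hypoxia targets therefore did not move together. The part of this list and of the microglia markers in the result for the members was not tested.

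**Figure D3:**
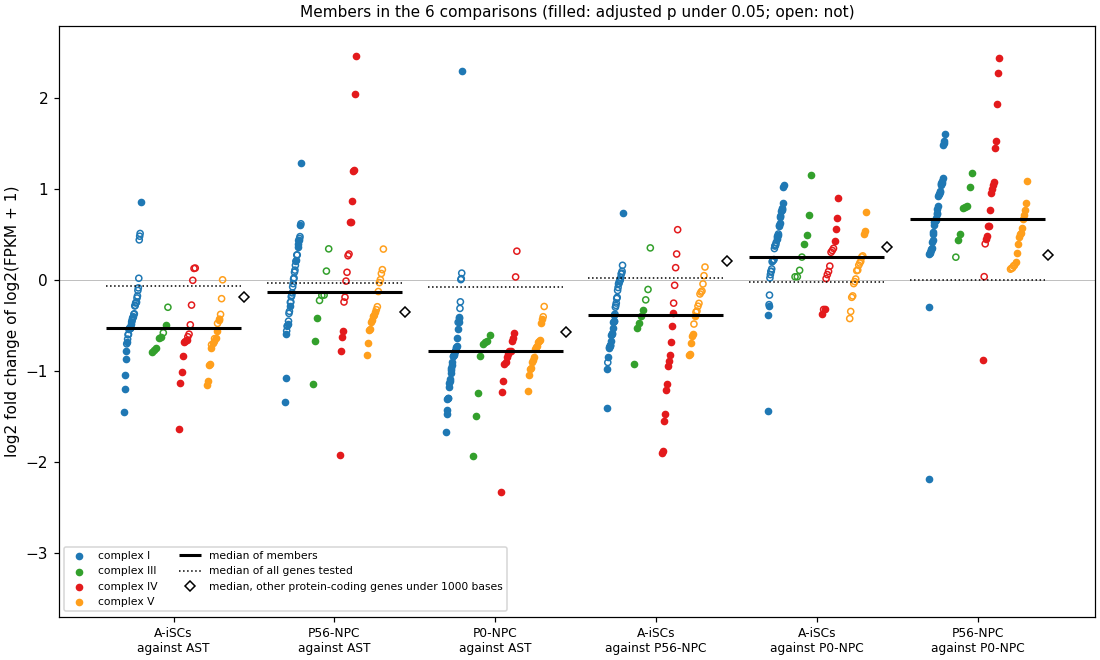
Log2 fold change of each tested member in the 6 comparisons, by complex (filled, adjusted p under 0.05; open, not), with the median of the members (solid line), of all genes tested (dotted line) and of other protein-coding genes with transcripts under 1000 bases (diamond). In A-iSCs against AST the member median of -0.53 lies below both other medians, and in A-iSCs against P0-NPC the member median of 0.26 lies below the 0.37 of other short genes.

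Between the cells taken from brain and the cultured astrocytes, the members went in both directions in P56-NPC. Here 13 members were higher and 20 were lower of 78 tested, while 39.1% of all genes tested were higher and 39.8% lower. The member median was -0.13 and that of all genes -0.03, and other protein-coding genes under 1000 bases were at -0.35. Without AST replicate 2, 37 members were higher and 23 lower, and the member median turned to 0.078. Without P56-NPC replicate 1, 13 were lower. After centring by transcript length 35 were higher, 11 were lower and the median was 0.17, and with scaling by library size alone 7 were higher and 38 lower. No direction is therefore given for the set as a whole.

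Of 17 complex IV members tested 7 were higher and 4 lower, but Cox6a2, Cox8b and Cox7b2 reached the test through P56-NPC alone, and over the 14 others 4 were higher and 4 lower, with a median of 0.04. In complex V 8 of 17 were lower and none higher, with a median of -0.35. The difference between the complexes was not tested. Cox8a (chr19:7215153-7217616, minus strand), a small subunit of complex IV, stood at 480, 701 and 511 FPKM in AST and at 1238, 1262 and 1387 FPKM in P56-NPC. The P56-NPC samples were all above the AST samples, and the log2 fold change was 1.22 (SE 0.17, adjusted p = 0.000414, limma). Cox4i1, the regulatory subunit IV, rose from 295, 428 and 287 FPKM to 599, 634 and 586 FPKM (log2 fold change 0.87, adjusted p = 0.00236). Cox6a1 rose by 0.64 (adjusted p = 0.017), a call that was lost under several alternatives with adjusted p up to 0.145.

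In complex I, Ndufb9 had the largest log2 fold change, 1.29 (SE 0.19, adjusted p = 0.000575, limma), at 94.8, 95 and 86.0 FPKM in P56-NPC and 30.6, 51.3 and 31.8 FPKM in AST. Of its exon bases 19.5% are shared with Gm49356 on the same strand, where reads of both genes could not be told apart. Of the core subunits, Ndufv1 rose by 0.45 (adjusted p = 0.000517), Ndufs7 by 0.61 (adjusted p = 0.0233) and Ndufs1 by 0.22 (adjusted p = 0.0273). These core calls were lost in some alternatives. Under library size alone the adjusted p was 0.146 for Ndufv1 and 0.19 for Ndufs7, and Ndufs1 had a log2 fold change of -0.10, and the calls of Ndufs7 and Ndufs1 were also lost when single samples were left out. Ndufb6 (-1.33), Uqcrb (-1.14), Atp5g1 (-0.82) and Cox6b2 (-1.93) were the smallest values of their complexes and were all lower, with adjusted p of 0.000264, 0.00781, 0.00141 and 4.35e-05.

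The 13 subunits encoded by the mitochondrial genome were higher in P56-NPC than in AST in each case, with a median log2 fold change of 2.58, and the ratio of their summed FPKM to that of the members was 16.7 ± 1.14 in P56-NPC, 3.62 ± 0.256 in AST, 6.55 ± 2.0 in A-iSCs and 7.21 ± 1.53 in P0-NPC (SD, n = 3). By contrast 18 of the 20 mitochondrial content genes were lower in P56-NPC than in AST, with a median of -0.93.

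In P0-NPC the members were lower than in AST almost throughout. Of 76 tested, 64 were lower and 1 was higher, Ndufa4l2, which reached the test through P0-NPC alone, while 40.9% of all genes tested were lower and 38.1% higher, and the member median was -0.78 beside -0.07 over all genes. Short transcripts as a class were lower too, with a median of -0.56 for other protein-coding genes under 1000 bases and -0.80 for the 48 members of that length. After centring by transcript length 38 members were lower and 6 higher with a median of -0.27, and without AST replicate 2 the members called higher were 3 and the median was -0.61. All 8 complex III members were lower, as were 29 of 37 in complex I, 12 of 14 in complex IV and 15 of 17 in complex V.

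Uqcrb (chr13:66900617-66905378, minus strand) was among the members with the smallest values, at 133, 248 and 145 FPKM in AST and 32.0, 48.5 and 52.3 FPKM in P0-NPC, with a log2 fold change of -1.94 (SE 0.27, adjusted p = 0.000255, limma). Ndufb6 fell by 1.67, Ndufs8, a core subunit of complex I, by 1.30, Cox8a by 1.23, Atp5g1 by 1.22 and Atp5b by 0.97 on the log2 scale. The adjusted p of these 5 genes lay between 7.07e-05 and 0.00073. The assembly factors moved the same way, with 30 of 42 lower and 1 higher, and all 10 genes of complex II and the mobile carriers were lower, with a median of -1.0.

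**Figure D4:**
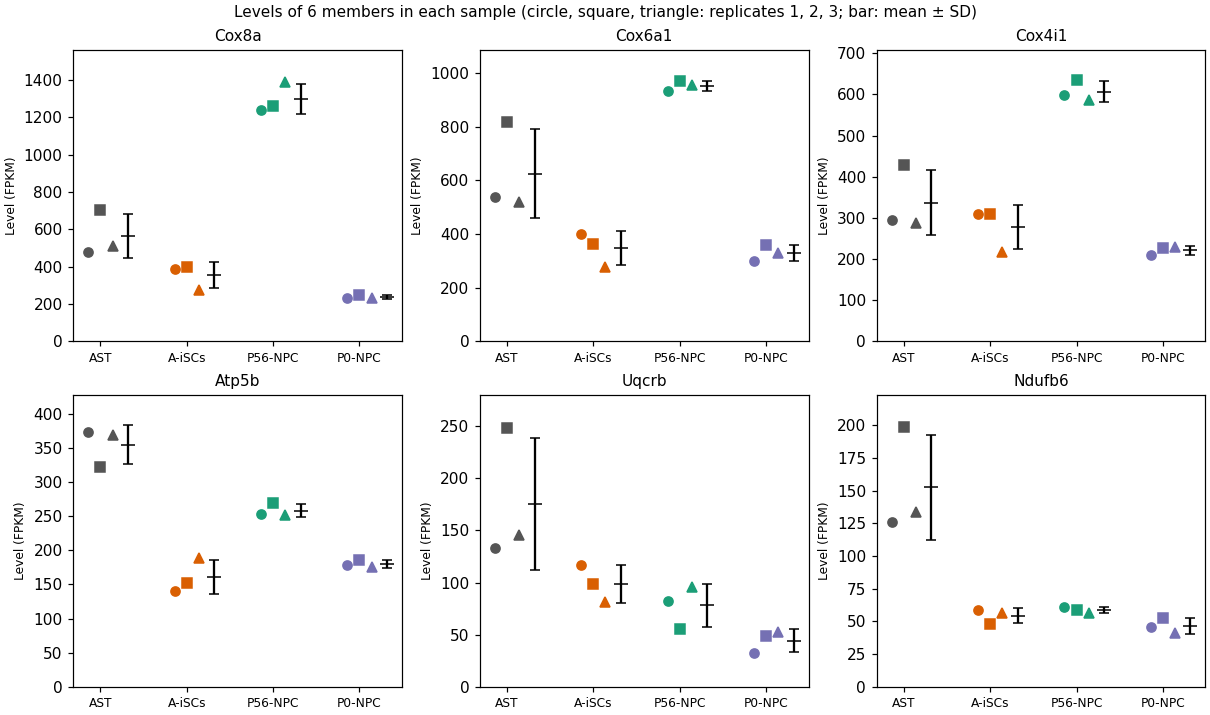
FPKM of Cox8a, Cox6a1, Cox4i1, Atp5b, Uqcrb and Ndufb6 in each sample (circle, square and triangle for replicates 1, 2 and 3; bar, mean ± SD). The 3 complex IV genes are highest in P56-NPC, with Cox8a at 1238 to 1387 FPKM, whereas Atp5b, Uqcrb and Ndufb6 are highest in AST.

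The spheres were next set beside the cells they were meant to resemble. These comparisons share the A-iSCs samples with the one against AST, and their values stand side by side. Of 79 members tested, 40 were lower and 1 was higher in A-iSCs than in P56-NPC, while 61% of all genes tested were called, 30.9% lower and 30.1% higher. The member median was -0.38, beside 0.03 over all genes and 0.22 for other protein-coding genes under 1000 bases. The split depended on the scaling. With library size alone, which moved the median of all genes to 0.49, 24 members were higher and 13 lower, and with nuclear fragments alone 9 were higher and 17 lower. Relative to all genes the members lay 0.33 to 0.41 lower in each scaling, which follows in large part from how scaling works. Centring by transcript length gave 53 lower. Without A-iSCs replicate 3, 44 were lower and 8 were higher.

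In complex IV 12 of 17 tested members were lower, and without Cox6a2, Cox8b and Cox7b2, which reached the test through P56-NPC alone, 9 of 14 were, with a median of -0.59. In complexes I, III and V 17 of 37, 5 of 8 and 6 of 17 were lower, with medians of -0.37, -0.36 and -0.34. The difference between the complexes was not tested. Cox8a was at 389, 400 and 277 FPKM in A-iSCs against 1238, 1262 and 1387 FPKM in P56-NPC (log2 fold change -1.88, SE 0.17, adjusted p = 8.46e-05, limma). Cox6a1 fell by 1.47 and Cox4i1 by 1.14 (adjusted p = 0.00021 and 0.000873). In the other complexes the smallest values belonged to Ndufb9 (-1.41), Uqcr11 (-0.92) and Atp5mpl (-0.82), with adjusted p of 0.000631, 0.000148 and 0.00253. Among the core subunits of complex I, Ndufs1 fell by 0.75 (adjusted p = 0.00324). With library size alone the calls of Atp5mpl and Ndufs1 were lost, at adjusted p of 0.126 and 0.182. The 1 higher member was Ndufa4l2, which reached the test through A-iSCs alone.

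Against P0-NPC the A-iSCs showed more members higher than lower, 25 and 5 of 76, while 65.1% of all genes tested were called, 31.5% higher and 33.6% lower. The member median of 0.26 was above that of all genes (-0.02), but other protein-coding genes under 1000 bases reached 0.37, and after centring by transcript length 12 members were higher and 12 lower with a median of 0.014. Single samples decided much of the count. Without A-iSCs replicate 3, 45 were higher and 7 lower, with a median of 0.39, whereas leaving out A-iSCs replicate 2, P0-NPC replicate 1 or P0-NPC replicate 2 gave 16 higher in each case. The lower count was 3 without A-iSCs replicate 1 or P0-NPC replicate 1, 2 without A-iSCs replicate 2, and 1 without P0-NPC replicate 2 or P0-NPC replicate 3. Uqcrb had the largest log2 fold change at 1.15 (SE 0.22, adjusted p = 0.00206, limma), and the largest values of complexes I, IV and V were Ndufs8 at 1.05 (adjusted p = 0.00442), the restricted form Cox7a1 at 0.91 (adjusted p = 0.00164) and Atp5h at 0.76 (adjusted p = 0.0102). The 5 lower members were Ndufa4l2, Ndufa4, Cox7a2, Cox5a and Ndufv1, of which all but Ndufa4l2 had log2 fold changes between -0.38 and -0.28 and lost their call under several alternatives. Cox5a is again named after its value was seen.

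Between the brain-derived groups most members were higher in P56-NPC. Of 79 members tested, 68 were higher and 3 were lower in P56-NPC than in P0-NPC, while 39.7% of all genes tested were higher and 39% lower. The member median was 0.67 beside 0.01 over all genes and 0.28 for other protein-coding genes under 1000 bases, and it lay between 0.65 and 0.70 when single samples were left out. Centring by transcript length left 62 higher and 4 lower. The scaling mattered for the split: with library size alone, which moved the median of all genes to -0.53, 32 were higher and 20 lower with a median of 0.057. Age and brain region both differ between these groups and cannot be told apart, and the oligodendrocyte markers given above moved with the difference, whose part in it was not tested.

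Cox8a had the largest value of the comparison, at 1238, 1262 and 1387 FPKM in P56-NPC and 230, 247 and 232 FPKM in P0-NPC, a log2 fold change of 2.45 (SE 0.09, adjusted p = 2.63e-07, limma). Cox6a1 was at 1.53 and Cox4i1 at 1.45, and the median of the complex was 0.69 over its 14 members with a mean of at least 1 FPKM in both groups. Among the core subunits of complex I, Ndufs8 was higher at 1.13 and Ndufs7 at 1.07, and Ndufa12, an accessory subunit, reached 1.61 (adjusted p = 0.000198). The largest values in complexes III and V were Uqcr11 at 1.18 (adjusted p = 0.000112) and Atp5h at 1.09 (adjusted p = 4.02e-06). Over the 75 members with a mean of at least 1 FPKM in both groups 65 were higher and 2 lower, with a median of 0.66. The 2 lower were Cox4i2 and Ndufs4, at -0.88 and -0.30, and Ndufa4l2 reached the test through P0-NPC alone. Ndufs4, also named after its value was seen, lost its call with all 4 groups in the model. Of the assembly factors 23 of 43 were higher and 6 lower, and of complex II and the carriers 9 of 10 were higher, while the content genes were split, with 9 of 20 higher and 5 lower.

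The restricted isoforms were then read as a share of the summed FPKM of each set of related genes, which does not depend on the scaling of the samples. Over 10 isoforms and 6 comparisons, 60 exact two-sided permutation tests were made, and 3 samples against 3 cannot give a p under 0.1, which is 0.15 after adjustment over the 60. In 40 of the 60 the groups did not overlap, and these had that smallest p. Differences in level between these groups were common, since limma called 54.8 to 79% of all genes tested. How often the shares of other gene sets fail to overlap was not counted, and some of the 40 rest on few fragments, as for Cox8b and Cox7b2. The count is therefore not read as a result about the isoforms.

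Cox6b2, the form of subunit VIb best known from testis, was at 27.3, 41.1 and 24.5 FPKM in AST and between 3.83 and 10.6 FPKM in the 9 other samples. Its log2 fold changes against AST were -1.64 in A-iSCs, -1.93 in P56-NPC and -2.33 in P0-NPC (adjusted p = 0.000562, 4.35e-05 and 4.98e-05, limma). As a share of Cox6b1 and Cox6b2 it made up 8.49, 8.63 and 8.33% in AST, 3.31, 3.55 and 4.50% in A-iSCs, 2.59, 2.79 and 2.29% in P56-NPC and 4.11, 2.74 and 1.90% in P0-NPC. The AST shares were close together, AST replicate 2 included, and lay above all others, whereas A-iSCs and P0-NPC overlapped.

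Ndufa4l2 (chr10:127514967-127517154, plus strand), a relative of Ndufa4 known to be induced by hypoxia and expressed in pericytes, was at 0.327, 0.315 and 0.197 FPKM in AST (6, 7 and 4 fragments), 1.04, 1.73 and 1.26 FPKM in A-iSCs, 0.421, 0.626 and 0.166 FPKM in P56-NPC and 5.71, 4.17 and 6.23 FPKM in P0-NPC. P0-NPC lay above A-iSCs, which lay above AST and P56-NPC, and the last 2 groups overlapped. Between P0-NPC and A-iSCs, where both means reach 1 FPKM, the log2 fold change was -1.44 in A-iSCs (adjusted p = 0.000173, limma). Its share of Ndufa4 and Ndufa4l2 was 0.147 ± 0.0402% in AST, 1.58 ± 0.215% in A-iSCs and 4.76 ± 0.984% in P0-NPC (SD, n = 3). Cox4i2, also known from pericytes and from lung, was at 2.55, 3.09 and 3.73 FPKM in P0-NPC and 1.46, 1.66 and 0.693 FPKM in P56-NPC, while AST (1.89, 3.00 and 2.05 FPKM) and A-iSCs (2.96, 2.62 and 1.47 FPKM) overlapped P0-NPC. The P0-NPC and P56-NPC values corresponded to shares of 1.39 ± 0.201% and 0.208 ± 0.0780%. The 9 pericyte and mural markers summed to 128 to 143 FPKM in P0-NPC and to 12.2 to 22.1 FPKM elsewhere, with Higd1b at 0 in AST. Vtn (56.7 FPKM) and Rgs5 (38.6 FPKM) carried most of the P0-NPC sum, and Cspg4 was highest in P56-NPC. Their part in these results was not tested.

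**Figure D5:**
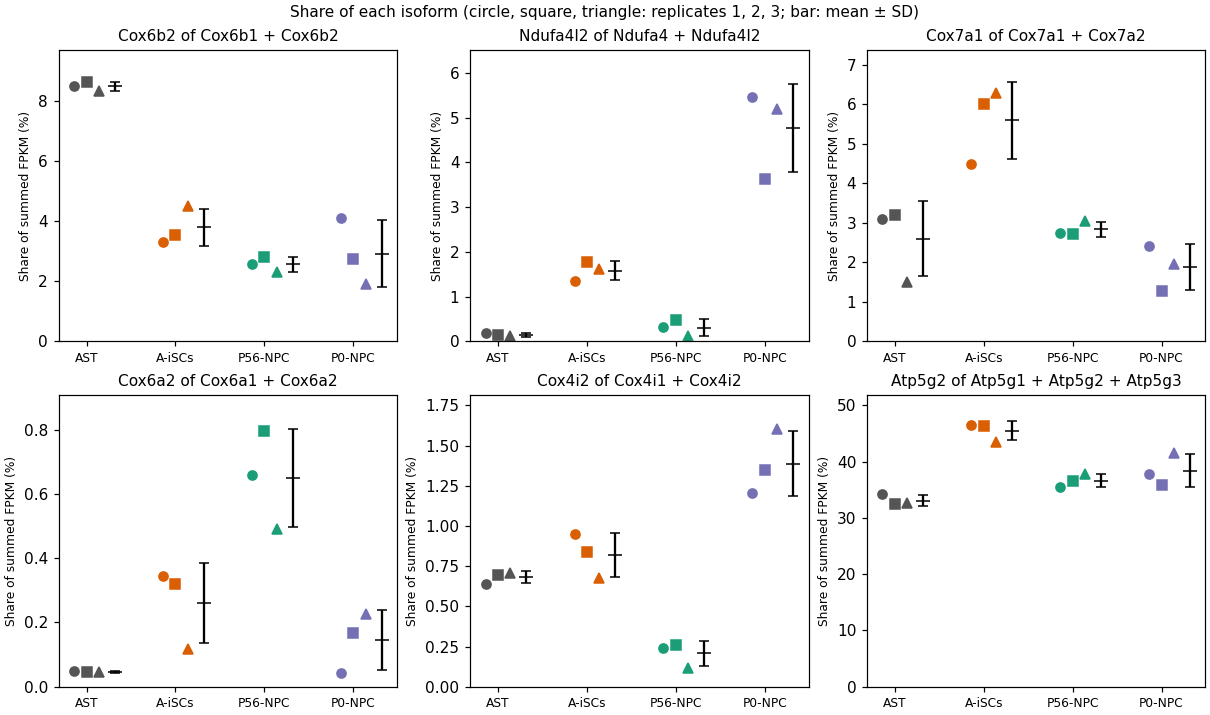
Share of 6 isoforms in the summed FPKM of their gene set, in percent, in each sample (circle, square and triangle for replicates 1, 2 and 3; bar, mean ± SD). Cox6b2 lies at 8.33 to 8.63% in AST and below 5% elsewhere, Ndufa4l2 is highest in P0-NPC, and Cox7a1 and Atp5g2 are highest in A-iSCs.

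Cox6a2 and Cox8b, forms known from heart and skeletal muscle, were low in all groups. Cox6a2 was at 6.18, 7.79 and 4.73 FPKM in P56-NPC (73, 85 and 53 fragments), 1.39, 1.18 and 0.329 FPKM in A-iSCs, 0.263, 0.363 and 0.238 FPKM in AST and 0.129, 0.606 and 0.747 FPKM in P0-NPC. The P56-NPC samples were above all others, and only their mean reached 1 FPKM. Cox8b rested on 29, 10 and 25 fragments in P56-NPC, 1, 4 and 9 in A-iSCs and at most 3 in the other samples. Cox7b2, a form known from testis, rested on 9, 10 and 17 fragments in P56-NPC, at most 3 in P0-NPC and 0 in AST and A-iSCs. Beside the muscle forms, 7 striated muscle markers summed to 5.27 to 5.51 FPKM in P56-NPC and to 0.762 to 2.57 FPKM in the other samples. Their sum was thus also highest in P56-NPC, with Myh6 at 2.26 FPKM there, which need not hold for each marker. Of the 7, 2 had a mean of at least 1 FPKM in P56-NPC and 1 in AST. The 6 markers of parvalbumin interneurons, which are known to express Cox6a2, summed to 40.2 to 59.9 FPKM in P56-NPC, 28.5 to 33.9 FPKM in A-iSCs, 26.9 to 31.2 FPKM in P0-NPC and 1.19 to 1.46 FPKM in AST. These 6 genes did not move together: Pvalb had means of 26.5 FPKM in A-iSCs, 15.5 FPKM in P56-NPC and 0.0226 FPKM in P0-NPC, Lhx6 was at 13.0 FPKM in P0-NPC and 0.0213 FPKM in A-iSCs, and Tac1 was at 0 in A-iSCs. The part of muscle cells or interneurons was not tested.

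Cox7a1, the heart and muscle form of subunit VIIa, had its largest share in A-iSCs. It made up 4.48, 5.99 and 6.29% of Cox7a1 and Cox7a2 there, against 3.09, 3.20 and 1.49% in AST, 2.74, 2.72 and 3.05% in P56-NPC and 2.42, 1.27 and 1.95% in P0-NPC. The A-iSCs shares lay above all others, which overlapped in part. Its own level of 3.34, 4.32 and 4.32 FPKM in A-iSCs overlapped that of AST (3.79, 5.71 and 1.91 FPKM), and its partner Cox7a2 was the gene that fell, as given above. Atp5g2 was likewise highest as a share in A-iSCs, at 45.5 ± 1.68%, against 33.1 ± 0.981% in AST, 36.6 ± 1.09% in P56-NPC and 38.4 ± 2.94% in P0-NPC (SD, n = 3), and the A-iSCs samples did not overlap any other group.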

How the data were processed

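The authors deposited 1 table of FPKM for 55862 genes and 12 samples, made from paired-end libraries of a NEBNext Ultra kit. The submitters' processing notes name Bowtie 0.12.2 and mm8, but all 82 members had the positions of GENCODE M21, so coordinates are on GRCm38. Whether counting used strand is not given in the sources used here. Fragments per gene were recovered from FPKM and gene length, since 100% of values came out whole within 0.02. The library size behind the FPKM was 0.744 to 1.22 times the fragments counted, so the deposited FPKM already carry a scaling between samples.

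Groups were compared 2 at a time with limma 3.58.1 in R 4.3.3 (lmFit and eBayes with a trend) on log2(FPKM + 1), over genes with a mean of at least 1 FPKM in at least 1 of the 2 groups. Fold changes are on that scale, which understates those of low genes. Calls used a Benjamini-Hochberg adjusted p under 0.05 over all genes tested, and the test was checked on simulated data. The authors tested with DESeq2, which was not run here. A group without fragments allows up to 3 per library, 0.103 to 0.187 FPKM for a gene of 1 kilobase, counting error only.

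Isoform shares and sums were computed in Python 3.11.15 with pandas 2.3.3 and scipy 1.17.1. The genes named were the core subunits of complexes I, III and V, the c ring, the restricted isoforms and their partners, and, per complex and comparison, the largest and the smallest fold change. Members and lists were chosen with earlier results of these data known. Alternatives were 3 other scalings, no filter, a pseudocount of 0.1, all 4 groups in the model, a replicate block, limma-voom on the recovered fragments, and leaving out each sample. Centring by transcript length, which subtracts in each sample the median deviation of other protein-coding genes of the same length class, and leaving out 2 samples together, and keeping members with a mean of at least 1 FPKM in both groups, were added after the data were seen. Some results of genes under this rule are not reported here. No column was left out.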

Additional observations from a re-analysis of the deposited data

How the results depend on the processing

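Of 60 gene results named with a test, 44 kept their direction and their call in every alternative run, and 16 lost the call in at least 1; in A-iSCs against AST these were Cox6a1, Cox8a, Ndufs1, Uqcrb and Uqcrc2. Only Ndufs1 in P56-NPC against AST turned, to -0.10 with library size alone. All 40 isoform differences without overlap kept their direction. Leaving out single samples could not have reversed them, since the groups did not overlap. Outside the c ring, fragments not divided by length could not have done so either, so nothing is drawn from this. The causes of the changes below were not tested.

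With scaling by library size alone, members higher and lower were 3 and 15 in A-iSCs against AST, 7 and 38 in P56-NPC against AST, 24 and 13 in A-iSCs against P56-NPC, and 32 and 20 in P56-NPC against P0-NPC, and 4 were higher in P0-NPC against AST. The member medians became -0.31 in A-iSCs against AST, -0.45 in P56-NPC against AST, -0.52 in P0-NPC against AST, 0.16 in A-iSCs against P56-NPC (a change of sign) and 0.057 in P56-NPC against P0-NPC. Upper-quartile scaling gave 8 higher and a median of -0.28 in P56-NPC against AST and a median of 0.63 in P56-NPC against P0-NPC. With nuclear fragments alone the counts were 4 higher and 14 lower in A-iSCs against AST, 31 lower in P56-NPC against AST, 4 higher in P0-NPC against AST, 9 and 17 in A-iSCs against P56-NPC, and 42 and 9 in P56-NPC against P0-NPC, and the medians were -0.29 in A-iSCs against AST, -0.25 in P56-NPC against AST, -0.50 in P0-NPC against AST, -0.023 in A-iSCs against P56-NPC and 0.25 in P56-NPC against P0-NPC. The summed level was 6619 FPKM in P56-NPC and 5104 FPKM in P0-NPC with library size alone, and 6361 FPKM in A-iSCs, 7980 FPKM in P56-NPC and 5358 FPKM in P0-NPC with nuclear fragments alone, beside 7768 and 8070 FPKM in AST.

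No filter gave 21 lower in A-iSCs against AST, and all 4 groups in the model gave 2 higher there and 2 in A-iSCs against P56-NPC. Centring by transcript length gave 5 higher in A-iSCs against AST, 35 higher and 11 lower in P56-NPC against AST, 6 higher and 38 lower in P0-NPC against AST, and 12 and 12 in A-iSCs against P0-NPC. In A-iSCs against P56-NPC limma then called 0 higher, with 1 at an unadjusted p under 0.05. The medians under centring were 0.17 in P56-NPC against AST (a change of sign), -0.27 in P0-NPC against AST, -0.57 in A-iSCs against P56-NPC, 0.014 in A-iSCs against P0-NPC and 0.51 in P56-NPC against P0-NPC. Without AST replicate 2 and A-iSCs replicate 3 the A-iSCs against AST values were 10 higher and a median of -0.22. Over members with a mean of at least 1 FPKM in both groups limma called 0 higher in A-iSCs against AST, A-iSCs against P56-NPC and P0-NPC against AST, with 0 at an unadjusted p under 0.05 in each, and limma-voom called 1 in each over all members tested.

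With the replicate number as a block, members higher were 2 in A-iSCs against P56-NPC and members lower were 1 in A-iSCs against P0-NPC, and the other counts stayed within 1.5 times. Same-numbered samples did not deviate together in each pair (correlations from -0.38 to 0.43), so the numbers were not taken as pairs.

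Leaving out single samples gave 1 to 3 higher and 18 to 27 lower in A-iSCs against AST with a median from -0.64 to -0.33, 9 to 37 and 13 to 23 in P56-NPC against AST with a median from -0.19 to 0.078, 1 to 3 higher in P0-NPC against AST, 1 to 8 higher in A-iSCs against P56-NPC, and 16 to 45 and 1 to 7 in A-iSCs against P0-NPC with a median from 0.22 to 0.39.

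With 3 samples a group and members that are mostly short, the counts of members called moved with single samples and with the scaling, and members on few fragments (Cox8b, Cox7b2, Cox6a2, Ndufa4l2 outside P0-NPC) carry large counting error.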
